A study of Mus musculus with 4 samples.

Results

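The 10 genes described here encode receptors of the activin, BMP and TGF-beta ligands, and they were taken by symbol from the mouse annotation of genome build mm9, which lists 22367 protein-coding genes. They were followed in primary hepatocytes of 12- to 16-week-old C57BL/6 mice that were either WT or lacked Tm7sf2/NET47 (KO), a transmembrane protein of the nuclear envelope and the endoplasmic reticulum. Hepatocytes of each genotype were put in culture and transduced with a lentivirus for LaminB1-Dam or, as the control, for Dam alone, and their DNA was taken 60 h later. That gave 4 libraries, each of DNA pooled from 4 mice, so each genotype had 1 library pair and no replicate. In DamID the bacterial Dam methylase, fused to LaminB1 of the nuclear lamina, methylates the adenine of GATC sites in the DNA that touches the lamina, and this DNA is then recovered and sequenced. Stretches in which LaminB1-Dam exceeds Dam alone are lamina-associated domains (LADs). The data were 4 lists of genome intervals, namely 8107 LADs in WT, 16076 LADs in KO, 7787 differential regions (DRs) in WT LADs only and 8208 DRs in KO LADs only. LADs covered 55.4% of the genome in WT and 56.1% in KO, so the KO list held more and shorter domains. The lists give borders without read counts or a signal. The depth and the error of a border are therefore unknown from them, no test between the genotypes was possible, and hepatocyte markers could not be checked. A WT to KO difference below is a difference between 1 pair of pooled libraries and another, and genotype, animals and sequencing of that pair cannot be told apart.

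Ligands of the TGF-beta superfamily bind a complex of type I and type II receptors, both of them serine/threonine kinases that span the membrane. The type II receptor phosphorylates the type I receptor, which in turn phosphorylates Smad proteins that carry the signal to the nucleus, Smad2 and Smad3 for TGF-beta and activin, and Smad1, Smad5 and Smad9 for the BMPs. In the liver BMP signals control the iron hormone hepcidin, activins restrain hepatocyte growth, and TGF-beta restrains growth and drives fibrosis. Genes within LADs are often, but not always, of low activity.

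Among the receptor genes, 2 met a DR that was at the periphery in KO only (*Acvr1* and *Acvr2a*), and 1 met DRs that were at the periphery in WT only (*Tgfbr3*). *Acvr1c* lay in a LAD in both genotypes, and *Tgfbr1*, *Acvr1b*, *Bmpr1a*, *Tgfbr2*, *Acvr2b* and *Bmpr2* had no LAD on their span in either. LAD borders at 4 of these genes are shown first as sequence, because a border falls in a GATC site and the step from the WT to the KO border is what differs between the lists. Those at *Acvr1* and *Acvr2a* bound the DRs that set their calls. The pair at *Tgfbr3* bounds a stretch within the gene that is no DR, and the border at *Bmpr2* sets no call. Each is 60 bases of the plus strand of mm9 with the border's GATC in capitals, and none overlaps an exon. The order starts with the upper border of the LAD that reaches the 3′ end of *Acvr1* (chr2:58277418-58277477 in WT, chr2:58302162-58302221 in KO). Then comes the upper border of the LAD before or over the start of *Acvr2a* (chr2:48667714-48667773 in WT, chr2:48690768-48690827 in KO). Next is the border within *Tgfbr3* nearest to its start (chr5:107678766-107678825 in WT, chr5:107686311-107686370 in KO). Last is the near border of the KO LAD beside *Bmpr2* (chr1:59935550-59935609).
Acvr1 WT border: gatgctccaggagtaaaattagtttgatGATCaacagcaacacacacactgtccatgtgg
Acvr1 KO border: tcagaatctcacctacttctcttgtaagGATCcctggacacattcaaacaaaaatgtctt
Acvr2a WT border: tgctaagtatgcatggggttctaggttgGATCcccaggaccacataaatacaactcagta
Acvr2a KO border: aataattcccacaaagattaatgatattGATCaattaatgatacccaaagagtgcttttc
Tgfbr3 WT border: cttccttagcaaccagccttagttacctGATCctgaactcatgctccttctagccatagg
Tgfbr3 KO border: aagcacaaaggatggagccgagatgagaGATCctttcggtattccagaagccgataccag
Bmpr2 KO border: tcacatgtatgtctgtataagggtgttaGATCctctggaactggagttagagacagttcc

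Genes were classed by the overlap of the gene span, from the first to the last base of all its transcripts, with at least 1 base of a DR. A gene that met a KO-only DR was IP (interior in WT, periphery in KO), a gene that met a WT-only DR was PI, and a gene that met both was AMB. Of the rest, a gene with LADs in both genotypes was PP, and any other gene was class II. By this rule 2 of the 10 receptor genes were IP, beside 17.1% of all protein-coding genes, and 1 was PI, beside 5.43%. None was AMB (2.96% of all genes), 1 was PP (17.9%) and 6 were class II (56.6%). The receptor genes are long, with a median span of 90.7 kb against 15.4 kb for all genes, and 8 of the 10 are between 50 and 200 kb. A longer span meets a DR more readily. Among all 3887 genes of 50 to 200 kb, 32.0% were IP, 7.80% were PI and 43.9% were class II. The counts of 2, 1 and 6 among 10 genes do not set the receptors apart from genes at large.

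**Figure D1:**
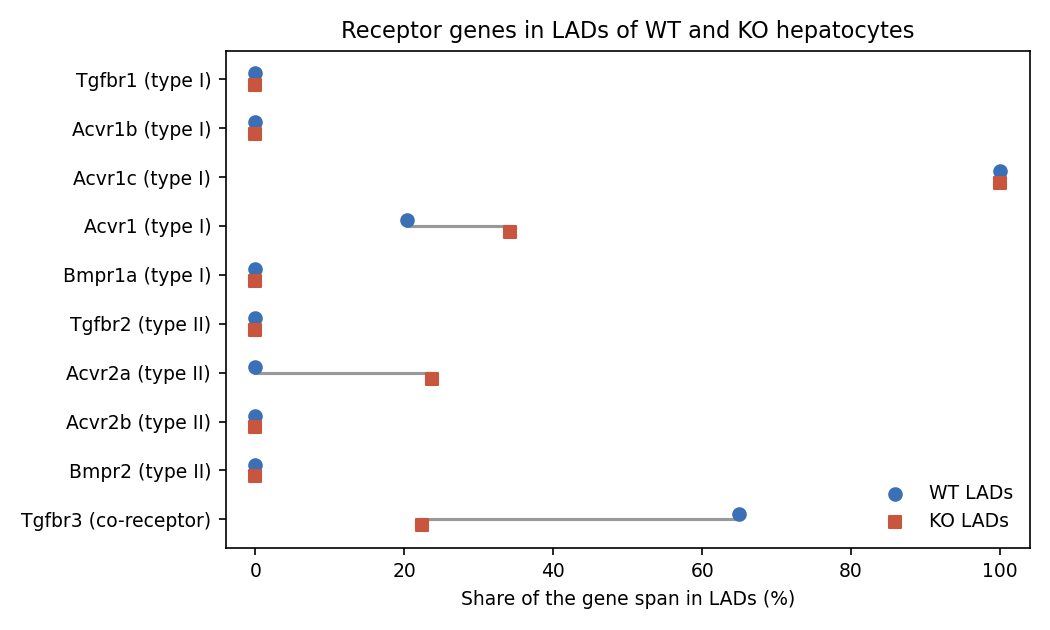
The share of each gene span in LADs (x axis, percent) for the 10 receptor genes, with WT as circles and KO as squares from 1 library pair per genotype and no error bars. *Acvr1c* is at 100% in both, *Acvr1* and *Acvr2a* are higher in KO, *Tgfbr3* is lower in KO, and the other 6 genes are at 0.

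The type I receptors begin with *Tgfbr1* (Alk5), the type I receptor for TGF-beta, on chromosome 4 (ENSMUSG00000007613.9, 47366094 to 47427803, plus strand). No LAD touched any of the 9 exons of its main transcript, taken here as the coding one with the largest sum of exon lengths. The nearest LAD lay on its 3′ side in both genotypes, at 113 kb in WT and at 26.4 kb in KO. The nearer KO LAD is 24.6 kb long, no part of it was in a WT LAD, and it meets *Alg2*, a mannosyltransferase gene, by at least 1 base. On the 5′ side there was no WT LAD within 500 kb of *Tgfbr1*, while 5 KO LADs covered 16.7% of that stretch. On the 3′ side LADs covered 65.1% in WT and 76.0% in KO.

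*Acvr1b* (Alk4), a type I receptor for activins, lies on chromosome 15 (ENSMUSG00000000532.8, 101004556 to 101043032, plus strand) among 26 other protein-coding genes within 500 kb. It was far from LADs in both genotypes. The nearest was 389 kb away on the 3′ side in WT and 282 kb away on the 5′ side in KO, and 1.47% of the gene with 500 kb on each side was in WT LADs and 6.73% in KO LADs. *Bmpr1a* (Alk3), the type I BMP receptor, was similar in its distances. It lies on chromosome 14 (ENSMUSG00000021796.8, 35223920 to 35316527, minus strand), 326 kb from a LAD in WT and 293 kb from one in KO, both on its 5′ side. None of the 9 exons of *Acvr1b* or the 13 of *Bmpr1a* was in a LAD.

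*Acvr1c* (Alk7), a type I receptor for activins and Nodal known for its part in fat cells, was the only receptor gene that lay wholly in LADs. It is on chromosome 2 (ENSMUSG00000026834.7, 58119864 to 58210306, minus strand), and 100% of its span, all 9 exons and all its transcript starts were in a LAD in both genotypes. The domain was not the same size in both. In WT it was a single LAD of 1085 kb (57192928 to 58277448), and in KO 5 LADs covered 92.6% of that stretch, of which the one over *Acvr1c* was 273 kb long (58029247 to 58302192).

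*Acvr1* (Alk2), a type I receptor for BMPs and activins, is the next gene, 30.7 kb above *Acvr1c* and on the same strand (ENSMUSG00000026836.9, chromosome 2, 58241055 to 58419568, minus strand). LADs covered 20.4% of its span in WT and 34.2% in KO, through the same domain that holds *Acvr1c*. The upper border of this domain was at 58277448 in WT and at 58302192 in KO, and the 24.7 kb between them, with 51 GATC sites, form the KO-only DR that made *Acvr1* IP. The overlap depends on which transcript is taken. The lower end of the span comes from a noncoding processed transcript (ENSMUST00000145495.1, 58241055 to 58368683), of which WT LADs took 28.5% and KO LADs 47.9%. The main coding transcript (ENSMUST00000090935.2, 58298852 to 58419237) had 0% in the WT domain and 2.78%, or 3.34 kb, in the KO domain. This short piece held exons 12 and 13, the last of 13, while no LAD of either genotype reached the other 11. All 6 transcript starts of *Acvr1* were outside LADs. The nearest LAD to the start of the main transcript was on its 5′ side, at 47.6 kb in WT and at 54.9 kb in KO. In neither genotype was it the domain that holds *Acvr1c*.

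**Figure D2:**
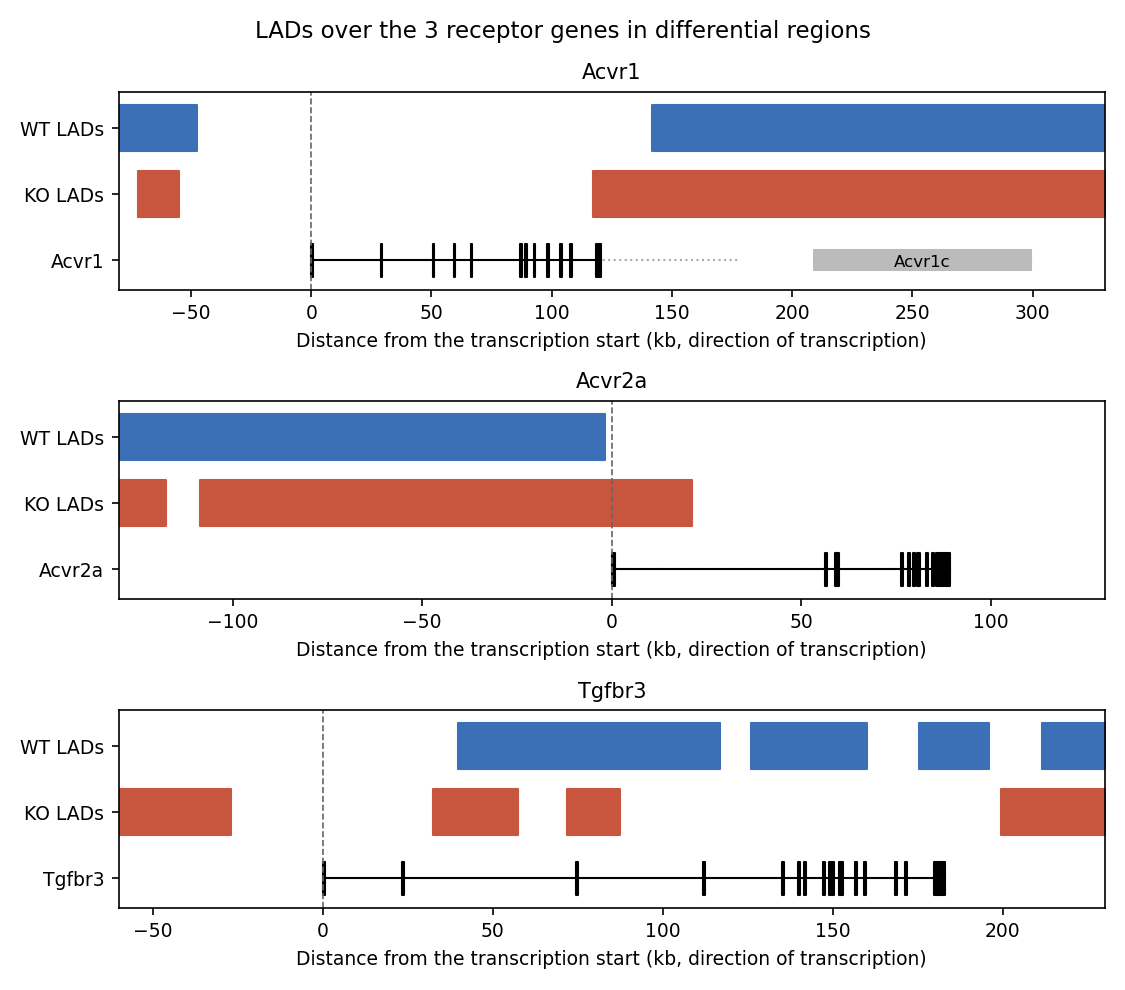
LADs of WT (blue) and KO (red) around *Acvr1*, *Acvr2a* and *Tgfbr3*, drawn by distance from the transcription start of the main transcript (x axis, kb, dashed line at 0). Black boxes are exons, the dotted line is the part of the *Acvr1* span that only a noncoding transcript fills, and the grey box is *Acvr1c*. The KO LAD reaches the last exons of *Acvr1* and the first exon of *Acvr2a*, and most of the WT LAD stretch over *Tgfbr3* is missing in KO.

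The type II receptors are *Tgfbr2*, *Acvr2a*, *Acvr2b* and *Bmpr2*. *Acvr2a*, a type II receptor for activins and some BMPs, was the only receptor gene whose main transcript had its start in a LAD of one genotype alone. It lies on chromosome 2 (ENSMUSG00000052155.5, 48669629 to 48758789, plus strand), and LADs covered 0% of its span in WT and 23.7% in KO. In WT a LAD of 339 kb (48328900 to 48667744) ended 1.88 kb before the start. In KO 3 LADs covered 94.7% of that stretch, and the last of them, 130 kb long (48561072 to 48690798), ran on through the start and 21.2 kb into the gene. The KO-only DR is 23.1 kb long and holds 42 GATC sites. Exon 1, which holds the start, was in the KO LAD and the other 10 of 11 exons were in none. Of all genes, 11.8% had the start of their main transcript in a KO-only DR.

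The *Acvr2a* promoter thus lay in the stretch that differs between the lists. Its 250 bases before the start (chr2:48669379-48669628, plus strand of mm9) are shown with each CG pair in capitals, since they are dense in CG and hold a GATC at which Dam can act.
Acvr2a promoter: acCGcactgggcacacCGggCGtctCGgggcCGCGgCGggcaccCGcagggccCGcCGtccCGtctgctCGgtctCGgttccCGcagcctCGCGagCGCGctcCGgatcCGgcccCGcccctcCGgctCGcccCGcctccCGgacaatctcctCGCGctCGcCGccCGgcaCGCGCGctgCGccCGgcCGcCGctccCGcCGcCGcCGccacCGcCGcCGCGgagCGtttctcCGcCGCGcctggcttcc
It holds 49 CG pairs, against a median of 9 over the promoters of all genes, and 99.8% of them hold fewer. GATC occurs 1 time in it, and 39.6% of all promoters hold at least 1, both strands being alike for either motif. None of the other 9 receptor promoters holds a GATC. The observed over expected CG ratio was 1.23 for *Acvr2a*, 1.11 for *Acvr1b* and 1.09 for *Acvr1*, the lowest of the receptors was *Tgfbr3* with 0.389, and the median of all genes was 0.514.

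*Bmpr2*, the type II BMP receptor, showed the widest gap between the genotypes in distance. It lies on chromosome 1 (ENSMUSG00000067336.4, 59821481 to 59927703, plus strand), and no LAD touched any of its 13 exons. The nearest WT LAD was 820 kb away on the 5′ side, a LAD of 10.6 kb that meets *Trak2*. The nearest KO LAD was 7.88 kb past the 3′ end, 52.7 kb long (59935581 to 59988324) and wholly outside WT LADs, and it meets *Fam117b*. No WT LAD lay within 500 kb of *Bmpr2*. In KO 4.19% of the 5′ side and 20.9% of the 3′ side were in LADs. The transcription start, at the far end of the gene, was 820 kb from a LAD in WT and 114 kb from one in KO. Of the 15562 genes with no WT LAD on their span, 24.8% were farther from a LAD than *Bmpr2* in WT and 26.5% were closer than it in KO.

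*Acvr2b*, the other type II activin receptor, lies on chromosome 9 (ENSMUSG00000061393.6, 119311562 to 119342619, plus strand). Its nearest LAD was at 158 kb in WT and at 47.8 kb in KO, on the 3′ side in both. The KO LAD is 21.2 kb long and has no base in a WT LAD. *Tgfbr2*, the type II receptor for TGF-beta, is also on chromosome 9 (ENSMUSG00000032440.5, 115993415 to 116084383, minus strand) and went the other way. It was 29.7 kb from a LAD in WT and 44.9 kb from one in KO, on the 3′ side in both. In this case it was the same domain, which meets *Gadl1*, 163 kb long in WT and 146 kb long in KO, with the border nearer to *Tgfbr2* drawn back. The genes named on these neighbouring LADs, from *Alg2* to *Gadl1*, were looked up after the distances were known.

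Of the 10 receptor genes, 7 had no WT LAD on their span, and in 6 of these the nearest LAD was closer in KO. For all genes with no WT LAD the share was 86.8%, so the receptors resemble the rest in this. Genes with a WT LAD on the span, which could not come closer, are left out on both sides of this comparison. The median distance of the 7 genes was 158 kb in WT and 44.9 kb in KO, and over all such genes it was 307 kb in WT and 71.6 kb in KO. The KO list holds more LADs over a similar share of the genome, and the KO libraries were sequenced less deeply per the study's text. The part of either in these distances was not tested. In WT the order of distance ran from *Acvr2a*, *Tgfbr2* and *Tgfbr1* to *Acvr2b*, *Bmpr1a*, *Acvr1b* and *Bmpr2*, and in KO *Bmpr2* moved from last to second.

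**Figure D3:**
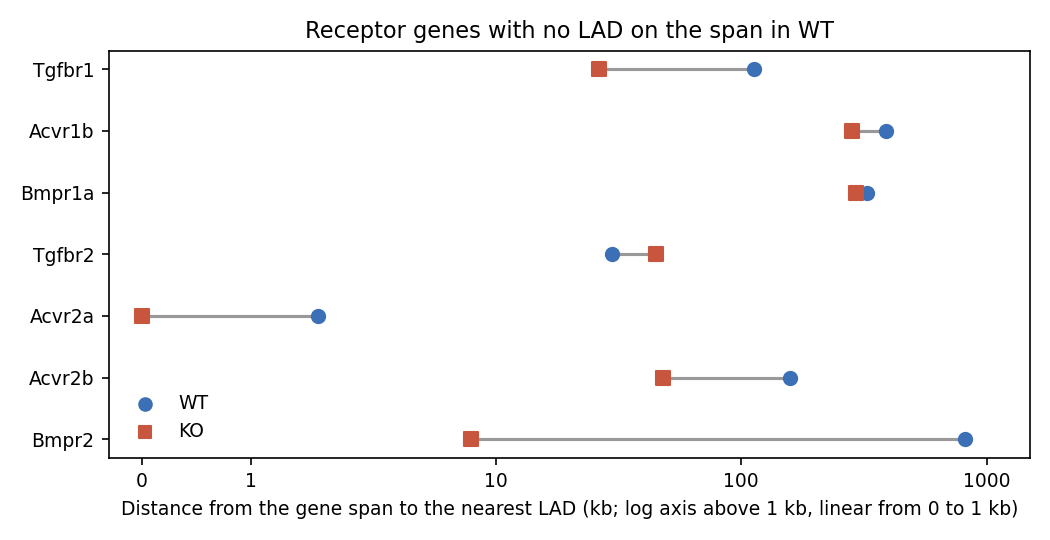
Distance from the gene span to the nearest LAD (x axis, kb, logarithmic above 1 kb) for the 7 receptor genes with no LAD on the span in WT, with WT as circles and KO as squares from 1 library pair each. *Tgfbr2* is the 1 gene farther from a LAD in KO, and *Bmpr2* spans the widest gap, from 820 to 7.88 kb.

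*Tgfbr3* encodes betaglycan, a co-receptor without kinase activity that presents TGF-beta2 to its receptors and binds inhibin. It was the only receptor gene with less of its span in LADs in KO, 22.4% against 64.9% in WT (ENSMUSG00000029287.8, chromosome 5, 107535589 to 107718648, minus strand). In WT 3 LADs of 20.3, 34.2 and 77.0 kb lay on the gene. In KO the first 2 were absent, and of the third, 43.3% remained, in KO LADs of 15.7 kb (107631124 to 107646833) and 25.2 kb (107661132 to 107686341). WT-only DRs took 46.7% of the span, in 4 pieces of 20.3, 34.2, 29.3 and 14.3 kb with 44, 97, 54 and 33 GATC sites. Of 17 exons, 12 were in WT LADs only, namely exons 4 to 14 and exon 17. Exon 3 was in LADs of both genotypes, and exons 1, 2, 15 and 16 were in none. The border within the gene nearest to the start ran against this. The KO LAD there ended 32.3 kb from the start, a stretch of 7.54 kb beyond the WT LAD. Stretches under 10 kb are not kept as DRs, so this one did not count. The start of the main transcript was outside LADs in both. Its nearest LAD was within the gene in WT, at 39.9 kb, and a separate LAD on the 5′ side in KO, at 27.1 kb. The start of a short coding transcript at the 3′ end (ENSMUST00000136882.1) was in a WT-only LAD.

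Set beside other genes of their class, the DR took 13.9% of *Acvr1* and 23.7% of *Acvr2a*, where the median of all IP genes was 42.8%, and 17.4% and 30.5% of IP genes had a smaller share. For *Tgfbr3* the share of 46.7% was above the PI median of 34.9%, with 57.5% of PI genes below it. A neighbouring protein-coding gene on each side of these receptors was also classed, and these did not follow them as a rule. *Acvr1* lies between *Acvr1c* (PP) and *Upp2*, a uridine phosphorylase gene 0.140 kb from it that was PI, where WT LADs took 18.2% and KO LADs 13.5% of the span. Beside *Acvr2a*, the genes compared were *Zeb2*, 3697 kb away and IP (41.6% in WT, 88.4% in KO), and *Mbd5*, 46.2 kb away and AMB (14.2% in WT, 76.6% in KO). *Acvr2a* has 2 protein-coding genes within 500 kb, so a gene other than *Mbd5* also lies there. That gene was not compared, and *Mbd5* may not be the nearest. *Zeb2* encodes a repressor that binds Smads. Both neighbours of *Tgfbr3*, which was PI, were IP. *Cdc7*, a cell cycle kinase gene, had 0% of its span within LADs in WT but 34.0% in KO, and *Brdt*, a testis bromodomain gene, had 25.6% and 100%.

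The LAD share around each gene was measured over the span and 500 kb on each side. It was higher in KO for 8 receptor genes and lower for 2, and it was higher in KO for 63.2% of all genes. Its median over the receptors was 32.2% in WT and 42% in KO with a median difference of 4.74 percentage points, and over all genes it was 23.8% and 29.0% with a median difference of 2.31. The gene with the largest gain was *Acvr2a*, which at 74.8% in KO was 24.9 points above WT. *Tgfbr1* had 30.7% and 43.7%, *Bmpr2* had 0% and 11.4%, *Tgfbr3* had 33.7% and 40.2%, and *Bmpr1a* had 17.8% and 22.0%. *Acvr1* had 51.5% and 54.6%, and *Acvr2b* had 23.6% and 24.7%. The lower shares in KO were 49.2% against 71.5% at *Tgfbr2* and 61.8% against 64.1% at *Acvr1c*. The size of these differences depended on the width. At *Tgfbr2* the KO minus WT difference was -22.2 points with 500 kb, -14.1 with 1000 kb and -8.48 with 200 kb on each side, so it kept its sign, while that of *Acvr1c* changed sign at both other widths and that of *Tgfbr3* at 1000 kb. With 200 kb it was 25.9 at *Tgfbr1*, 20.7 at *Bmpr2*, 11 at *Tgfbr3* and 7.91 at *Acvr2b*, where 500 kb gave 13, 11.4, 6.59 and 1.05, and it was 0 at *Acvr1b* and *Bmpr1a*. With 1000 kb it was 3.06 at *Acvr2b*, 1.72 at *Acvr1* and 1.53 at *Bmpr1a*, where 500 kb gave 3.11 at *Acvr1* and 4.22 at *Bmpr1a*. At *Acvr2a* it lay between 22.0 and 24.9 at all 3 widths. The count of genes higher in KO was 8 with 1000 kb and 7 with 200 kb.

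Split by side, the gain outside *Acvr2a* was wholly on its 3′ side, where LADs covered 19.9% in WT and 70.6% in KO, while its 5′ side had 89.0% and 88.2%. For *Tgfbr3* the 5′ side had 15.3% and 48.3%, and the 3′ side 40.6% and 38.7%. *Tgfbr2* was lower in KO on both sides, 40.9% against 66.1% on the 5′ side and 66.5% against 89.8% on the 3′ side. The flanks of *Acvr1c* and *Acvr1* overlap and are not separate evidence.

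**Figure D4:**
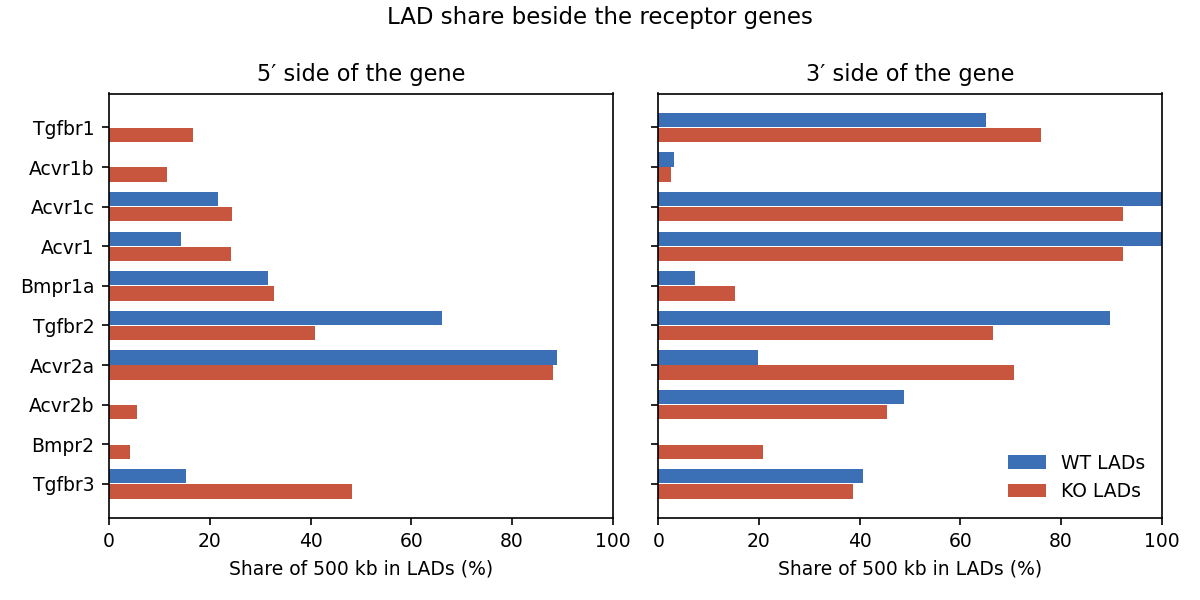
Share of the 500 kb on the 5′ and the 3′ side of each receptor gene in LADs (x axis, percent), with WT in blue and KO in red from 1 library pair each and no error bars. *Acvr2a* differs on the 3′ side (19.9 and 70.6%), *Tgfbr3* on the 5′ side (15.3 and 48.3%) and *Tgfbr2* is lower in KO on both.

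Besides their length, most receptor genes shared a promoter CG ratio above the median of all genes, which was 0.514. It ran from 0.665 to 1.23, with only *Tgfbr3* below the median, at 0.389. In place and surroundings the receptor genes varied. They lie on 7 chromosomes, *Acvr2a*, *Acvr1c* and *Acvr1* on chromosome 2 and *Tgfbr2* and *Acvr2b* on chromosome 9. The GC content of the span ran from 37.3% at *Acvr2a* to 51.1% at *Acvr2b*, around the median of 45.6% of all genes. GATC sites ran from 21.1 to 25.4 in 10 kb beside a median of 24.1. All receptor genes but *Tgfbr1* (24.6) and *Acvr2b* (25.4) were below that median. The number of other protein-coding genes within 500 kb ran from 2 at *Tgfbr2* and *Acvr2a* to 26 at *Acvr1b*. Of their 112 exons, 10 were in LADs of both genotypes, 12 in WT only, 3 in KO only and 87 in neither. The 12 are all of *Tgfbr3*.

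For context, 67 other genes of the superfamily's signalling were classed by the same rule, and 10 were IP (14.9%), 5 PI (7.46%), 1 PP (1.49%) and 51 class II (76.1%), with none AMB. The shares of all protein-coding genes given above were 17.1% IP, 5.43% PI, 17.9% PP and 56.6% class II, so IP and PI lay nearer to those shares than PP and class II did. When a DR had to take 10% or more of the span, 8 genes were IP and 4 PI. Among 22 ligands, 3 were IP and 3 PI. The IP ligands were *Gdf2* (BMP9), made in the liver, with 0% of the span covered in WT and 100% covered in KO, *Bmp2* with 53.8% and 100%, and *Bmp8a* with 0% and 58.9%. The PI ligands were *Mstn* (myostatin) with 100% and 0%, *Tgfb2* with 13% and 0%, and *Bmp5* with 100% and 88.9%. *Tgfb2* encodes the ligand that betaglycan presents. It and *Tgfbr3* were both PI by span, but both were class II by the transcription start alone, and a link between them was not tested. The other 16 ligands, among them *Bmp6* and the activin subunit genes *Inhba* and *Inhbe*, were class II, and 18 of the 22 had no KO LAD.

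Of the 9 other receptors and co-receptors 1 was PI, *Bmpr1b*, a further type I BMP receptor, with 94.6% covered in WT and 86.6% covered in KO, and its DR share of 9.24% is also short of 10%. *Bambi*, a decoy receptor, was class II by the rule although 57.1% of its span was in a KO LAD and 0% in a WT LAD, as that stretch is under 10 kb. The other 7 had no KO LAD. Of 14 Smads and partners 3 were IP, *Smad9* with 0% in WT and 58.5% in KO, *Smad2* with 0% and 8.62%, and *Smad1* with 0% and 7.74%, of which *Smad2* and *Smad1* fall short of 10% of the span, while the other 11, among them *Smad3*, *Smad4*, *Smad5* and the inhibitory *Smad6* and *Smad7*, had no LAD in either genotype. Among 14 extracellular inhibitors and latency proteins 4 were IP. These were the BMP antagonist *Nog* (0% and 100%), the activin antagonist *Fst* (0% and 74.7%), the BMP antagonist *Grem1* (51.7% and 100%) and *Ltbp1*, which holds latent TGF-beta in the matrix (30.8% and 67.4%). *Bmper* was PI (91.9% and 81.4%) and 8 were class II. All 8 target genes, the hepcidin gene *Hamp* and the *Id* genes among them, were class II with no LAD in either genotype.

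**Figure D5:**
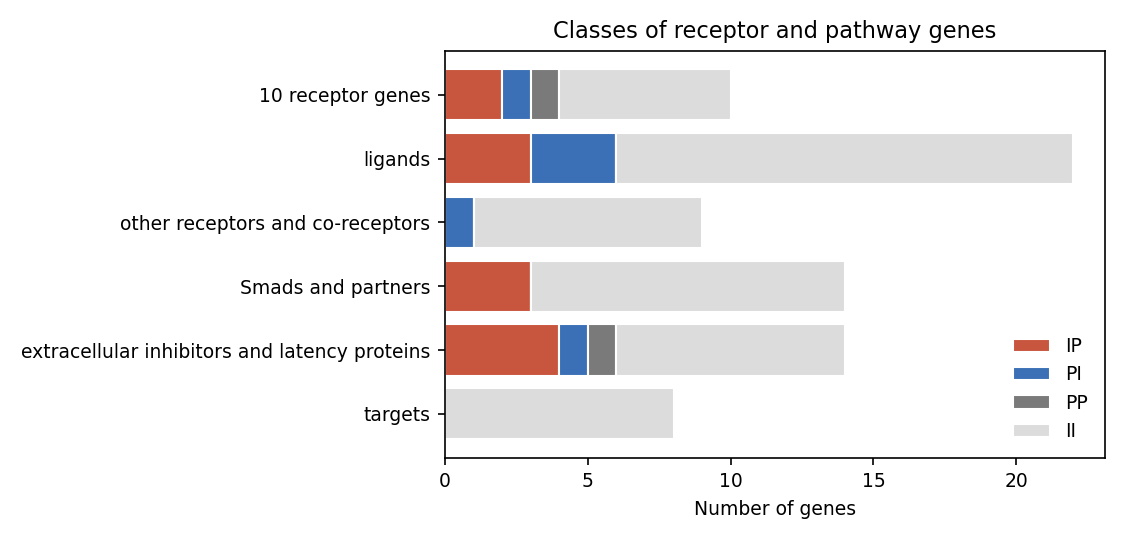
Number of genes (x axis) in each class for the 10 receptor genes and for the 5 groups of other pathway genes, where IP is interior in WT and periphery in KO, PI the reverse, PP at the periphery in both and II all others. Class II is the largest class in every group, and the 8 targets are all in it.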

How the data were processed

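The authors mapped reads to mm9, took the log2 ratio of LaminB1-Dam to Dam alone per *DpnI* fragment, called LADs with DNAcopy at default settings and subtracted the lists to obtain DRs. The submitters' processing notes also name BWA and limma, with no versions. The deposited lists hold interval borders only. Repeating the subtraction, with stretches under 10 kb left out, returned both DR lists with 0 differences. Genotypes of the lists were read from their names. Gene models were GENCODE vM1 on NCBIM37 (mm9). Intervals were converted to 1-based positions. Overlaps, distances and sequences were computed in Python 3.11.15 with numpy 2.4.6 and pysam 0.24.0, and the interval functions were tested on simulated data. Distance counts from the gene span or the transcription start to the nearest LAD border. With 1 library pair per genotype no test was run. Members and lists were chosen with earlier results of these data known. Named were all 10 receptors, each pathway gene called IP, PI or AMB, the lowest and highest KO share per role, and a neighbouring gene on each side of receptors called IP, PI or AMB. Other genes named were chosen after their values were seen. Some genes that this rule or the lookup of neighbouring LADs would name are not reported here.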

Additional observations from a re-analysis of the deposited data

How the results depend on the processing

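The classes depend on how much overlap counts. The 2 IP calls became 0 when a DR had to take 50% or more of the span, 1 by the transcription start alone (*Acvr2a*) and, in an alternative chosen after seeing the data, 1 with at least 10% of the main transcript's span, where *Acvr1* dropped out. The 1 PI call, *Tgfbr3*, became 0 with at least 50% and by the start alone. It became AMB with LAD differences of any length and, chosen after seeing the data, with LADs joined across gaps of up to 100 kb. With at least 50% the PP count was 3, as *Acvr1* and *Tgfbr3* joined *Acvr1c*. The KO minus WT share at *Acvr1*, 13.9 points of the span, was 21.9 in 100 kb centered on the gene and 2.78 on the main transcript. The difference around *Acvr1c* turned from -2.27 to 0.485 with 1000 kb and to 1.15 with 200 kb on each side, and that around *Tgfbr3* from 6.59 to -0.408 with 1000 kb. Of 7 genes without a WT LAD, 6 were closer to one in KO also with LADs of at least 20 kb and with gaps of up to 50 kb joined. No replicate could be left out and no paired analysis was possible because each genotype has 1 library pair. The lists give no depth, so no error of a border can be stated.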
